A study of Mus musculus with 6 samples.

Results

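The 7 genes described here are the mouse lipoxygenases Alox5, Alox8, Alox12, Alox12b, Alox12e, Alox15 and Aloxe3, measured by 8 probe sets of the 45037 non-control probe sets on an oligonucleotide array, where 18193 genes had a probe set of their own. Every probe set that the platform annotation assigns to 1 of these symbols was taken, so Alox12 has 2 probe sets and each other gene has 1. Back skin was taken from the same region of 6 mouse embryos at e18.5 (days of embryonic development), and 1 array was hybridised per mouse. The arrays compare 3 Get1 -/- with 3 Get1 +/+ animals, and Get1 is the earlier name of Grhl3, a grainyhead-like transcription factor. No treatment is named for either genotype. The strain, the deleted part of the gene and the litters are not given in the sources used here, so p-values measure the spread between these mice.

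Lipoxygenases add molecular oxygen to polyunsaturated fatty acids and form lipid hydroperoxides. In the outer epidermis Alox12b oxygenates the linoleate carried by acylceramides, and Aloxe3 isomerises the hydroperoxide that Alox12b forms. The oxidised ceramides are then attached to proteins of the cornified envelope, and loss of either enzyme is known to impair the skin barrier in mice and to cause ichthyosis in people. The other members oxygenate arachidonate, and Alox8 also linoleate, and are known from keratinocytes, platelets or leukocytes.

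Values are MAS5 signals in arbitrary units, scaled alike on each array (2% trimmed mean of 500). Changes are log2 values of Get1 -/- minus Get1 +/+ from limma, with the standard error (SE) of that fit. Probe sets were tested when their mean log2 signal reached the median of the table, a signal of 137. This kept 22519 probe sets, among them 5 of the 8 for lipoxygenases, 1 each for Alox12b, Aloxe3, Alox12e, Alox12 and Alox5. The probe sets of Alox8 and Alox15 and the other one for Alox12 were dimmer, and their changes come from the same fit with no filter. The single Grhl3 probe set read 478, 934 and 670 in Get1 +/+ replicates 1 to 3 and 246, 413 and 380 in Get1 -/- replicates 1 to 3, with no overlap and a log2 change of -0.98 ± 0.29 (SE, adjusted p = 0.737 in limma). A probe set outside the deleted part would check nothing about the genotype. Keratins of epidermis were bright on every array, with Krt5 between 18878 and 22701 and Krt10 between 32618 and 40957. In whole skin, fewer cells of a type and less RNA per cell cannot be told apart.

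None of the 5 tested lipoxygenase probe sets passed an adjusted p under 0.05 in limma, where 6 of 22519 probe sets did (0.0266%). With the replicate number as a block, again none passed, where 35 of all probe sets did (0.155%). All 5 had lower mean log2 values in Get1 -/- skin. At an unadjusted p under 0.05 there were 2 of the 5, Alox12b and Alox12e, both lower, and 3.76% of all tested probe sets were lower at that level. In the same 2 genes every Get1 -/- value lay below every Get1 +/+ value, which held for 6.51% of all tested probe sets. The dim Alox8 probe set went the other way, with all 3 Get1 -/- values above all 3 Get1 +/+ values.

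**Figure D1:**
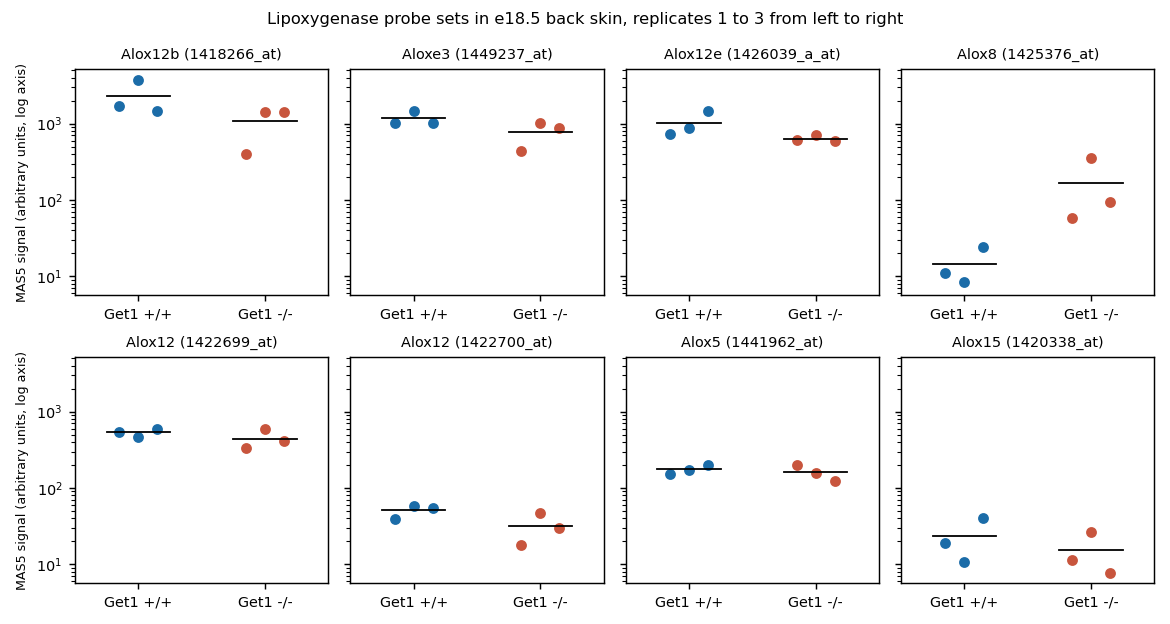
MAS5 signal (log axis) of the 8 lipoxygenase probe sets, with 1 point per mouse, replicates 1 to 3 from left to right, and a bar at the mean of 3 mice. Alox12b and Alox12e show no overlap between genotypes, Alox8 lies higher in Get1 -/- skin, and Alox15 and the dim Alox12 probe set read under 60 on every array.

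Alox12b, the enzyme that oxygenates acylceramide linoleate, had the largest difference among the tested members. Its signal was 1720, 3765 and 1482 in Get1 +/+ replicates 1 to 3 and 399.5, 1407 and 1399 in Get1 -/- replicates 1 to 3. The genotypes did not overlap, but 1 mouse of each stood apart from its group, high in Get1 +/+ replicate 2 and low in Get1 -/- replicate 1. The means were 2322 ± 1255 and 1068 ± 579 (SD, n = 3 each), a log2 change of -1.20 ± 0.51 (SE, 95% interval -2.37 to -0.04, adjusted p = 0.737 in limma). Without Get1 -/- replicate 1 the change was -0.60, and without Get1 +/+ replicate 2 it was -0.79.

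Aloxe3, the hydroperoxide isomerase that acts after Alox12b, varied over the arrays in a like order. It read 1018, 1450 and 1030 in Get1 +/+ skin and 441.5, 1019 and 877 in Get1 -/- skin, for replicates 1 to 3. The genotypes touched, since Get1 -/- replicate 2 matched Get1 +/+ replicate 1, and the highest and lowest arrays were the same as for Alox12b. The log2 change was -0.65 ± 0.31 (SE, 95% interval -1.35 to 0.06, adjusted p = 0.738 in limma). It was -0.28 without Get1 -/- replicate 1.

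Alox12e, an epidermal lipoxygenase of arachidonate, differed between genotypes through other arrays. Its signal was 728.2, 874.9 and 1455 in Get1 +/+ replicates 1 to 3 and 610.3, 702.3 and 598.7 in Get1 -/- replicates 1 to 3. The Get1 -/- mice lay close together below all Get1 +/+ mice, and the high value was that of Get1 +/+ replicate 3, where Alox12b was at its Get1 +/+ lowest. Means were 1019 ± 384 and 637 ± 56.8 (SD, n = 3 each), a log2 change of -0.62 ± 0.25 (SE, 95% interval -1.20 to -0.04, adjusted p = 0.737 in limma). Without Get1 +/+ replicate 3 the change was -0.33.

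**Figure D2:**
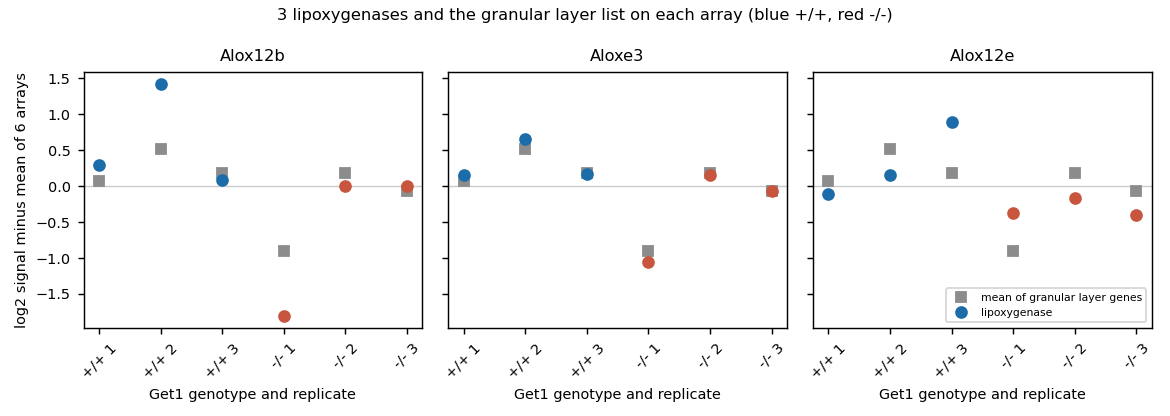
Log2 signal minus its mean over the 6 arrays for Alox12b, Aloxe3 and Alox12e (circles, blue Get1 +/+ and red Get1 -/-), with the mean of 10 granular layer genes on the same array (grey squares). Aloxe3 lies within 0.16 of the grey squares on all 6 arrays, while Alox12b departs by 0.91 in Get1 +/+ replicate 2 and by -0.91 in Get1 -/- replicate 1.

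Lower values were shared by markers of the granular layer, the living layer where Alox12b and Aloxe3 are made. Of 10 measured granular layer genes 9 were lower in Get1 -/- skin, with a median log2 change of -0.53, against 48.7% lower and a median of 0.01 over all 11387 genes. This list and those below were chosen with earlier results of these data known, so their counts are descriptions and not tests. None of the 10 passed in the unpaired limma fit. With the replicate block the protease gene Klk5 passed (adjusted p = 0.0469 in limma), where 0.155% of all tested probe sets passed in either direction. The genotypes overlapped for Klk5. The summed signal of the list ran from 99811 to 121966 in Get1 +/+ and from 49356 to 96701 in Get1 -/- skin, lowest in Get1 -/- replicate 1. Set against the mean of this list on each array, Aloxe3 differed between genotypes by -0.13, from 0.06 ± 0.08 in Get1 +/+ to -0.06 ± 0.08 in Get1 -/- mice (SD, n = 3 each). Alox12b still differed by -0.68, from 0.34 ± 0.52 to -0.34 ± 0.51, and genotypes overlapped on that scale. Alox12e differed by -0.10. The part of granular layer content in these differences was not tested. Lor and Asprv1 were the brightest of the list. Spinous layer genes, with Krt10 and Krt1 the brightest, had a median change of -0.24 (6 of 6 lower, sums of 122518 to 131589 and 99766 to 120468). Basal layer genes, with Krt5 and Krt14 the brightest, had a median of -0.12 (6 of 7 lower, sums of 57878 to 69738 and 57375 to 58676), and 0 were called in either list.

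The arrays were also split into 2 sets by an array control, the middle probe set for beta-actin, after the data were seen. It read 18407 to 19858 on Get1 +/+ replicates 1 and 2 and Get1 -/- replicate 1, and 10118 to 13060 on the other arrays. The cut lay midway between the lowest and the highest signal, which gives 2 sets for any values, and no label names a batch. In the first set Alox12b differed between genotypes by -2.67 and Aloxe3 by -1.46, and in the other by -0.08 and -0.12. Alox12e showed the opposite order, with -0.39 in the first set and -1.17 in the other. Each set holds 1 array of 1 genotype (Get1 -/- replicate 1 or Get1 +/+ replicate 3), so these values have no test, and the part of the set in the differences was not tested. The granular layer list differed by -1.20 and -0.13 in the same sets. Same-numbered mice of the genotypes are different embryos, and no label links them. Paired by replicate number 1 to 3, Alox12b differed by -2.11, -1.42 and -0.08, Aloxe3 by -1.21, -0.51 and -0.23, and Alox12e by -0.26, -0.32 and -1.28. Every pair was lower in all 3 genes. For Alox12b and Alox12e any pairing would give this, since their genotypes did not overlap. With the replicate block the adjusted p in limma was 0.32 for Alox12b, 0.404 for Aloxe3 and 0.448 for Alox12e.

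Alox8, which oxygenates arachidonate and linoleate and is known in mouse skin for its induction by phorbol ester, read 11.1, 8.53 and 24.3 in Get1 +/+ replicates 1 to 3. In Get1 -/- replicates 1 to 3 it read 57.7, 351 and 92.9. All Get1 -/- mice lay above all Get1 +/+ mice, which held for 4.29% of all 45037 probe sets, and replicate 2 was far above the other Get1 -/- mice. The Get1 +/+ signals were among the dimmest on their arrays, above 10.0% to 18.4% of probe sets, while those of Get1 -/- mice were above 32.1% to 66.3%. The log2 change was 3.23 ± 0.76 (SE, 95% interval 1.53 to 4.93). Its adjusted p with no filter was 0.706 in limma, and 2.50% of all probe sets were higher at an unadjusted p under 0.05, as Alox8 was. The table holds no detection calls, so the Get1 +/+ values cannot be told from background and the size of the change depends on how low signals are treated. With an offset of 37.6 added before log2 the change was 1.71 ± 0.47.

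The platelet-type enzyme Alox12 had a bright and a dim probe set. The bright one read 544.2, 468.8 and 597.7 in Get1 +/+ and 329.3, 587 and 414.4 in Get1 -/- skin, with overlap, for a log2 change of -0.31 ± 0.24 (SE, adjusted p = 0.82 in limma). The dim one read 39.3, 58.5 and 55.5 against 18.01, 47.2 and 30.1, a change of -0.77 ± 0.56, again with overlap. In both, Get1 -/- replicate 1 was lowest. The summed signal of 4 measured platelet genes, with Pf4 and Itga2b the brightest, ran from 4257 to 5775 in Get1 +/+ and from 4511 to 5678 in Get1 -/- skin, and its part in the Alox12 values was not tested.

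Alox5, the first enzyme of leukotriene synthesis, read 151, 174 and 200 in Get1 +/+ and 202, 159 and 124 in Get1 -/- skin, a log2 change of -0.14 ± 0.28 (SE, 95% interval -0.77 to 0.49, adjusted p = 0.942 in limma). The genotypes overlapped throughout, and the signal lay just above the filter limit. The leukocyte-type enzyme Alox15 read 19.0, 10.8 and 41.0 against 11.5, 26.8 and 7.84, at most above 25.5% of probe sets on an array, so it was among the dimmest probe sets in both genotypes, with overlap and a log2 change of -0.60 ± 0.80 (SE, no filter, adjusted p = 0.943 in limma). Leukocyte genes, whose cells are known to make both enzymes, were brighter in Get1 -/- skin. Their summed signal over 14 measured genes was 15094 to 19498 in Get1 +/+ and 20789 to 24020 in Get1 -/- mice, with 11 of 14 higher, a median change of 0.42 and 0 called. Csf1r and Mrc1 were the brightest of them, and all 14 leukocyte genes of the list passed the signal filter. Mast cell genes, led by Cpa3 and Cma1, had sums of 23352 to 38703 and 32629 to 43114, with 6 of 7 higher. Of 8 neutrophil genes on the array Camp and Ngp passed the filter, with sums of 323 to 459 and 321 to 530. The part of these cells in the Alox5 and Alox15 values was not tested. Among tissues that share the sample, 10 of 10 skeletal muscle genes, with Acta1 and Myh8 the brightest, were higher (median 0.33, sums of 113885 to 173439 and 134887 to 194925), and 2 of 4 sebaceous gland genes, with Scd1 and Plin2 the brightest, were lower (median -0.26, sums of 3494 to 6982 and 4040 to 8510), with 0 called in either.

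**Figure D3:**
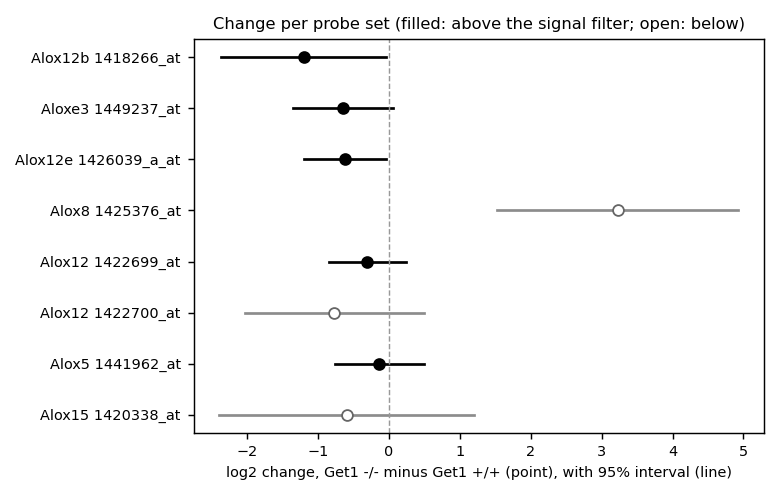
Log2 change (Get1 -/- minus Get1 +/+) of each lipoxygenase probe set with its 95% interval from limma. Filled points passed the signal filter and open points did not, and the intervals of Alox12b, Alox12e and Alox8 do not include 0, with no adjustment for the number of probe sets tested.

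Of these genes, 6 lie on mouse chromosome 11 and Alox5 lies on chromosome 6. In the order of the RefSeq gene table (GRCm38.p6) Aloxe3, Alox12b and Alox8 follow each other with no gene between them, and Alox12, Alox12e and Alox15 follow after 90 other entries. The mean log2 values of these direct neighbours differed in direction, lower for Aloxe3 and Alox12b and higher for Alox8 in Get1 -/- skin. None of them passed in limma, Aloxe3 overlapped between genotypes, and the Get1 +/+ signals of Alox8 cannot be told from background. Of the other genes within 5 entries of a lipoxygenase, 8 had a kept probe set, 5 of them lower and 0 called. Rnasek (-0.33 ± 0.18) was the neighbour whose genotypes did not overlap, where 6.51% of all tested probe sets were lower without overlap. Cntrob (-0.07 ± 0.17) and Trappc1 (-0.09 ± 0.16), which follow Alox8, overlapped.

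The start regions of the 3 members without overlap between genotypes are shown for comparison, since Alox12b and Alox12e were lower and Alox8 was higher. Each is the RefSeq window of 250 bases before and 50 bases from the gene's start (GRCm38.p6), written from 5′ to 3′ on the gene's strand. Capitals mark the letters GGGCGGGG or their reverse complement, a GC box as bound by Sp and Klf factors. The windows are chr11:69156822-69157121 on the plus strand for Alox12b, chr11:70322481-70322780 on the minus strand for Alox12e and chr11:69197794-69198093 on the minus strand for Alox8.
Alox12b: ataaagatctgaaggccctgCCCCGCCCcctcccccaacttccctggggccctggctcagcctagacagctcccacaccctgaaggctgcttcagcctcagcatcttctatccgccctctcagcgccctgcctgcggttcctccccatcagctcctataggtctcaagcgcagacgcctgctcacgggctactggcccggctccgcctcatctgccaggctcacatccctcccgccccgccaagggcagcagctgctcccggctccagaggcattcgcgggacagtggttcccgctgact
Alox12e: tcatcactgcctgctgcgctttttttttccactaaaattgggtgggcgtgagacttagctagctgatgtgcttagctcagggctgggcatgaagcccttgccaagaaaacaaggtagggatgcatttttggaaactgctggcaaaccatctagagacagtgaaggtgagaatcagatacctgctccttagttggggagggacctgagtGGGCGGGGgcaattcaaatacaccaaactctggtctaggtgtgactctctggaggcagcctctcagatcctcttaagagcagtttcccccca
Alox8: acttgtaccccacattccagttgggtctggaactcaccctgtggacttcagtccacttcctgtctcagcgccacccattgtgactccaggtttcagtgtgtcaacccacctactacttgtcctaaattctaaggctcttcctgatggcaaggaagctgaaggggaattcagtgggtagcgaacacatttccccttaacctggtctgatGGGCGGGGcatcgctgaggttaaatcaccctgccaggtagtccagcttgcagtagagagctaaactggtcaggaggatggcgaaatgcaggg

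Windows were given for 5 of the 7 genes, Alox5, Alox8, Alox12, Alox12b and Alox12e. The grainyhead-like octamer AACCGGTT was in 0 of the 5, and in 0.146% of all 32851 windows. The form AACCNGTT, with 1 base free and searched on both strands, was also in 0 of the 5 and in 2.09% of all windows, and every AACCGGTT match is a match of this form too. The GC box was in 4 of the 5, against 17.6% of all windows, and was added to the search after the windows were seen. It began 42 bases before the start in both Alox8 and Alox12e, 55 and 22 bases before it in Alox12, and 230 bases before it in Alox12b, where it was read on the opposite strand.

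Measured genes of the route that makes the acylceramide substrate and processes its oxidised form had lower mean log2 values in Get1 -/- skin, as Alox12b and Aloxe3 had. Of 12 measured genes of this route all 12 were lower, with a median log2 change of -0.61, against 48.7% lower and a median of 0.01 over all 11387 genes. The list was chosen with earlier results of these data known, so this count is a description and not a test. The changes ran from -1.44 for Sdr9c7 to -0.01 for Abhd5. Of these 12 representative probe sets 0 passed in the unpaired limma fit or with the replicate block. The granular layer markers moved with them, with 9 of 10 lower and a median of -0.53, and both lists were lowest in Get1 -/- replicate 1. Averaged over its members, the route differed between genotypes by -1.01 in the set of arrays where beta-actin was high and by -0.34 in the other set. The granular layer list differed there by -1.20 and -0.13. The part of granular layer content and of the actin set in the values of the route was not tested. Cyp4f39, which hydroxylates the end of very long chain fatty acids, read 977 ± 252 in Get1 +/+ and 600 ± 101 in Get1 -/- skin (SD, n = 3 each), a change of -0.69 ± 0.23 without overlap. Elovl1, which elongates those fatty acids, changed by -0.72 ± 0.15 in its brightest probe set, and genotypes did not overlap in any of its 4 probe sets. These read 1 gene in the same mice, and 6.51% of all tested probe sets were lower without overlap. With the replicate block 1 of the 4, changed by -1.12 ± 0.27, passed (adjusted p = 0.027 in limma), where 0.155% of all tested probe sets passed in either direction. The brightest (adjusted p = 0.0791) and the others (0.0714 and 0.317) did not. Sdr9c7, a dehydrogenase that acts on the product of Aloxe3, read 572, 1441 and 580 in Get1 +/+ and 183, 528 and 202 in Get1 -/- skin in the probe set that passed with the block (adjusted p = 0.0322), a change of -1.54 ± 0.47. Genotypes did not overlap there, and its other probe set changed by -1.44 ± 0.50 with overlap and did not pass with the block (adjusted p = 0.0714).

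Tgm1, the transglutaminase of the envelope, changed by -0.89 ± 0.31 without overlap, and the epoxide hydrolase gene Ephx3 by -0.86 ± 0.30 with overlap. Pnpla1, which transfers linoleate to the ceramide, changed by -0.67 ± 0.27. The ceramide synthase gene Cers3 changed by -0.55 ± 0.32 and the elongase gene Elovl4 by -0.47 ± 0.26. The dimmer kept probe sets of Elovl4 and Abhd5 changed by -0.87 ± 0.34 and -0.22 ± 0.24, both with overlap. In its brightest probe set Abhd5, a cofactor of Pnpla1, changed by -0.01 ± 0.15 (95% interval -0.35 to 0.32). The soluble epoxide hydrolase gene Ephx2 changed by -0.12 ± 0.19 (95% interval -0.56 to 0.32). The summed signal of the 12 genes was 22504 to 32824 in Get1 +/+ and 14013 to 20860 in Get1 -/- mice, lowest again in Get1 -/- replicate 1.

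**Figure D4:**
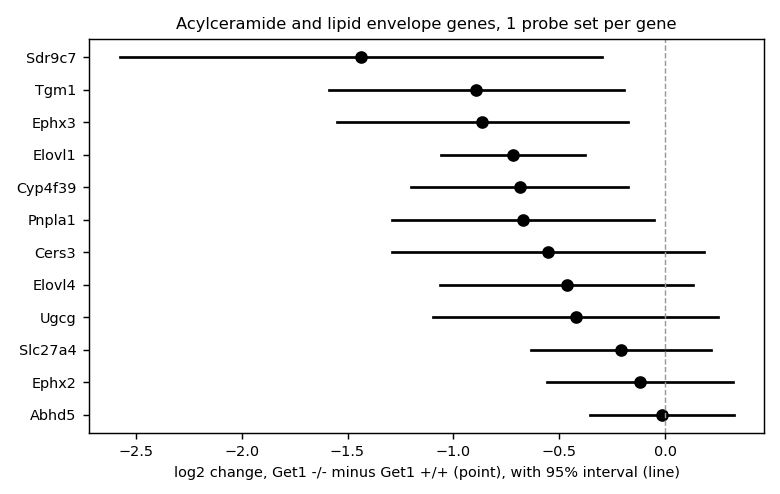
Log2 change (Get1 -/- minus Get1 +/+) of 12 genes of acylceramide synthesis and of the lipid envelope, 1 probe set per gene, with 95% intervals from limma. All points lie below 0, from -1.44 for Sdr9c7 to -0.01 for Abhd5. The genes were chosen with earlier results of these data known.

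Genes of arachidonate release and of the other eicosanoid branches went both ways. Among 6 measured phospholipase A2 genes the median change was -0.09 with 0 called. Pla2g4f changed by -0.32 ± 0.19 without overlap, Pla2g4a changed by 0.10 ± 0.27, and the epidermal secreted enzyme gene Pla2g2f gave -0.29 ± 0.22 in its bright and -1.09 ± 0.40 in its dimmer probe set. Among 5 leukotriene genes the median was -0.11 with 0 called. Alox5ap, the partner protein of Alox5, changed by 0.29 ± 0.19, Ggt5 by -0.34 ± 0.30, and Dpep1, a dipeptidase of leukotriene metabolism, by -0.39 ± 0.15 without overlap. The dimmer kept probe set of Dpep1 changed by -0.23 ± 0.24 with overlap. Among 6 prostanoid genes the median was 0.39 with 0 called. Hpgd, which inactivates prostaglandins, read 343, 414 and 366 in Get1 +/+ and 509, 596 and 579 in Get1 -/- mice, without overlap (0.59 ± 0.18). Ptgis (0.63 ± 0.30), the prostacyclin synthase, and Ptgds (-0.25 ± 0.17), a prostaglandin D synthase, overlapped. For comparison, 6.51% of all tested probe sets were lower without overlap, and 4.29% of all 45037 probe sets were higher without overlap.

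Of the enzymes that reduce lipid hydroperoxides 0 of 3 measured were called. Gpx4, the phospholipid hydroperoxide peroxidase, changed by 0.08 ± 0.17, Gpx1 by -0.08 ± 0.14 and Gpx3 by -0.23 ± 0.24. Of 17 eicosanoid and fatty acid receptor genes on the array 7 passed the filter, with a median of -0.07 and 0 called. The leukotriene receptor gene Ltb4r1 changed by 0.63 ± 0.43, the fatty acid receptor gene Ppard by -0.38 ± 0.28 and Ptgfr by 0.20 ± 0.19.

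The genes most like each lipoxygenase over the 6 arrays were ranked by the root mean square difference of their centred log2 signals. Nearest to Aloxe3 were Il18 (0.07), Krt78 (0.0718), Esyt3 (0.0854), Lce1b (0.0876) and Lce1d (0.0877), where the median over all genes was 0.568. Nearest to Alox12b were Kprp (0.185), Nipal1 (0.254), Trex2 (0.261), Skint10 (0.282) and Fndc9 (0.282), against a median of 0.982. Alox12b and Aloxe3 themselves differed by 0.449, more than any of these but below the median over all genes for each. The measure grows with the size of a change as well as with its pattern, and their log2 changes were -1.20 and -0.65. The nearest genes were picked from all genes for a small difference, so this comparison does not show that Alox12b and Aloxe3 are unlike. Nearest to Alox12e were Sp6 (0.0898), Hoxa2 (0.0947), Elf4 (0.104), 9130008F23Rik (0.11) and Egr3 (0.12), against a median of 0.466, and its difference from Alox12b was 0.885. Nearest to Alox12 were Mettl7a2 (0.0778), Zfp40, Il15ra, Zbtb7b and Znrf3 (0.111), against a median of 0.369. Nearest to Alox5 were Cog8 (0.0792), Usp39, Lins1, Pip5k1a and Gm5617 (0.0831), against a median of 0.325. The 3 sets of 5 nearest genes for Aloxe3, Alox12b and Alox12e had no gene in common. With so few genes taken from 11387, this does not measure how alike the 3 lipoxygenases are.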

How the data were processed

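Back skin RNA of 6 mice (3 Get1 +/+, 3 Get1 -/-) was measured on 1 array each. The authors deposited 1 intensity per probe set on a linear scale. MAS5 is named in the submitters' processing notes, with no version. Arrays were already scaled to one another, and dim signals are noisy on a log scale. The deposited intensities were converted to log2 without 64 control rows, and probe sets at or above the 50th percentile of mean log2 signal were tested across all probe sets with limma 3.58.1 in R 4.3.3 (lmFit, eBayes with trend, two-sided, Benjamini-Hochberg over 22519). The fit was tested on simulated data. Of the non-control probe sets 34945 carried 1 symbol, 932 several and 9160 none. A gene of a list was represented by its brightest kept probe set.

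Members and lists were chosen with earlier results of these data known. The rule for naming took all member probe sets, Grhl3, of each pathway list the genes that passed and the 3 with the smallest p, of each marker list the sums and the 2 brightest genes, the 5 genes nearest to each tested member, and chromosomal neighbours up to 5 entries away. Elovl4, Cers3, Ephx2, Ephx3, Pnpla1, Sdr9c7, Abhd5, Klk5 and additional probe sets were named after their values were seen.

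Mice are numbered 1 to 3 per genotype. Deviations of same-numbered arrays from their genotype means correlated at 0.133, 0.26 and 0.14, all above 0.1, so the replicate number was tried as a block. These correlations are weak, those of differently numbered arrays are not given here, and no label links the mice. Changes, SEs and intervals come from the fit without the block. Values with the replicate block are named as such, and are given for Alox12b, Aloxe3 and Alox12e and where the block changed a call. Lists were described by counts and medians. The number of arrays limits the precision.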

Additional observations from a re-analysis of the deposited data

How the results depend on the processing

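Each lipoxygenase was refitted under up to 16 alternatives: quantile normalization, median centring, no filter, a filter at the 70th percentile, an offset, array weights, eBayes without trend, gene means, leaving out each array, the replicate block, and the actin set as a block, which was added after the data were seen. None of the 8 probe sets passed under any of them (lowest adjusted p in limma 0.202, for Alox12e without Get1 +/+ replicate 1), and 7 kept their direction throughout. Alox5 ranged from -0.31 to 0.0417 with 1 array left out, and reached 0.0417 without Get1 -/- replicate 3; the cause was not tested. Over all alternatives Alox12b ranged from -1.51 to -0.60, Aloxe3 from -0.89 to -0.28, Alox12e from -0.83 to -0.33 and Alox8 from 1.71 to 3.78. The count of probe sets called was 13 with median centring and 35 with the replicate block (23 lower, 12 higher), and 4 to 26 with 1 array left out, the highest without Get1 +/+ replicate 1. No other setting moved it by more than 1.5 times. Neither scaling moved the median change of all tested probe sets by over 0.1. The filter was not varied for the 3 dim probe sets, and at the 70th percentile Alox5 was not tested. Signals near the lower end of the table limit what can be said of Alox8, Alox15 and the dim Alox12 probe set.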
